A study of Saccharomyces cerevisiae with 8 samples.

Results

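Poly(A) RNA of a budding yeast strain with the splicing mutation prp4-1 was compared with that of a prp4-1 strain in which transcription of IFH1 had been lowered. The pair consisted of 1 library of each strain out of 8 libraries in the series, and every difference between them is therefore given as a ratio with no test and no replicate error. Of 6569 genes in the table, 6222 had a mean scaled signal of at least 1 over the pair and were kept, and 347 were below this minimum. Just inside the minimum lay YPL261C with a mean of 1.00, and just outside it lay YDL186W with a mean of 0.996. The study asked how pre-mRNAs share the splicing machinery. Besides the pair it held 6 libraries of the MATa laboratory strain BY4741, grown in rich glucose medium (YPD) at 30 °C and left untreated or given 200 ng/mL rapamycin for 10 min or 60 min, with 2 biological replicates each.

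The first strain of the pair was MATalpha prp4-1 with the marker alleles ade2-, leu2-3,112 and ura3-52 and 1 further marker allele. The second carried prp4-1 together with a selectable marker and the GAL1 promoter placed before IFH1, and its labels give no other allele. Both strains were grown in YPD at 26 °C to an optical density of 0.5, a temperature 4 °C below that of the wild type. The GAL1 promoter is driven by galactose and shut by glucose, so the medium was one in which it is repressed. The labels give a lowering of IFH1 by about 50%. Whether each strain was a single clone is not stated in the sources used here.

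Ifh1 is a coactivator of ribosomal protein genes: it binds the forkhead protein Fhl1 at their promoters, next to Rap1, when the TORC1 kinase and protein kinase A signal good growth. A separate set of genes, the ribosome biogenesis regulon, encodes the factors that process ribosomal RNA and assemble the subunits, and it is kept off in poor conditions by the repressors Tod6, Dot6 and Stb3. Prp4 is a protein of the U4/U6 particle of the spliceosome. In yeast a large part of all introns and of all splicing events belongs to ribosomal protein genes.

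The values are signals per gene that the authors had multiplied by a constant for each library (the scaled signal). Read numbers per gene are not known, so neither counting intervals nor detection limits could be given. Summed over genes, the scaled signal was 3319860 in prp4-1 and 3065500 in the strain with lowered IFH1, and in the wild-type libraries it lay between 2025660 and 3306670. Wild-type signals printed beside those of the pair are as deposited, and the deposited scales of pair and wild type differ. Log2 ratios to the wild type are on a common scale described further on. Ratios are log2 of the signal with lowered IFH1 plus 1 over the signal in prp4-1 plus 1, so that negative values are lower with lowered IFH1. The median over the 6222 genes was 0.00. The spread of these log2 ratios was wide, with an SD across genes of 0.97, against 0.18 to 0.28 between the replicate libraries of each wild-type group. Across genes, the log2 signals of the pair correlated with Pearson's r = 0.920 (n = 6222 genes), and those of wild-type replicates with r between 0.993 and 0.996. Genes are not independent replicates, and these correlations are descriptions.

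At a threshold of 1.5-fold, 1131 genes (18.2%) were higher and 1340 genes (21.5%) lower with lowered IFH1, together 39.7% of the genes tested. Between wild-type replicates 4.89%, 2.17% and 1.81% of genes differed by as much. At 2-fold the numbers were 529 genes higher (8.50%) and 714 lower (11.5%). With both libraries brought to the same total signal in place of the deposited scaling, the median of all genes moved up by 0.11 on the log2 scale and the counts past 1.5-fold became 1374 higher and 1141 lower. No gene past 1.5-fold under the deposited scaling had the opposite sign under equal totals.

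**Figure D1:**
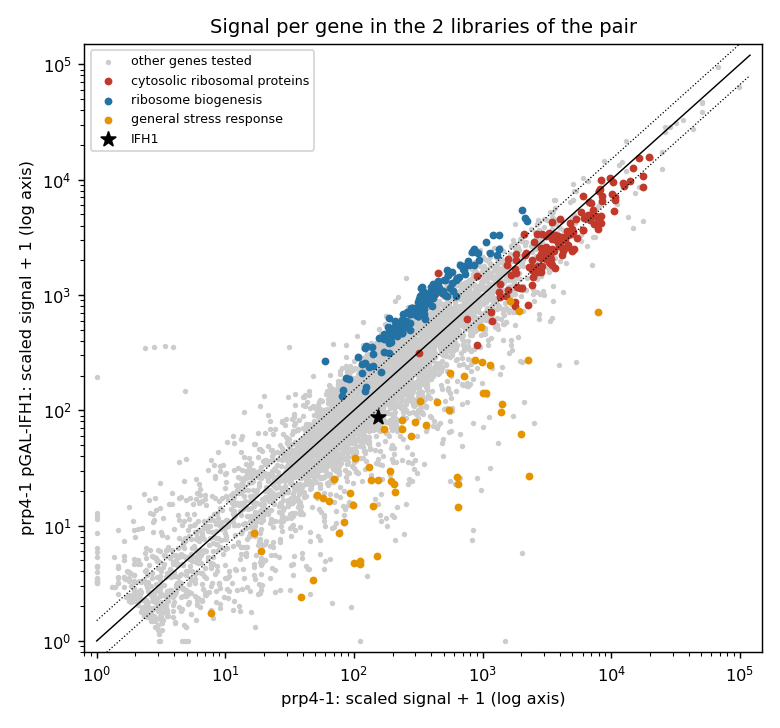
Scaled signal plus 1 of each of the 6222 genes in prp4-1 (x axis) and in prp4-1 with lowered IFH1 (y axis), both on log axes. The solid line marks equal signal and the dotted lines 1.5-fold. Ribosome biogenesis genes (blue) lie above the line, general stress genes (orange) below it, most ribosomal protein genes (red) a little below it, and IFH1 (star) at 154 and 86.1.

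IFH1 itself (chrXII:582006-585490, minus strand, build sacCer3, as placed by the deposited table) had a scaled signal of 154 in prp4-1 and 86.1 with lowered IFH1. The second value was 55.9% of the first, a log2 ratio of -0.83. The untreated wild-type libraries had 181 and 144 on the deposited scale of their own set, and after 10 min of rapamycin 41.2 and 42.5. The lowering of IFH1 in the pair was thus in the direction that the label gives and close to its size. Of all genes tested, 21.5% were at least 1.5-fold lower. On the common scale described further on, the log2 ratio of IFH1 to the untreated wild type was -0.41 in prp4-1 and -1.21 with lowered IFH1.

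Other factors of ribosomal protein and biogenesis promoters differed in both directions. FHL1, which encodes the DNA-binding partner of Ifh1, had 73.7 in prp4-1 and 124 with lowered IFH1 (log2 ratio 0.74). RAP1, the general regulatory factor of these promoters, had 119 and 182 (0.60). SFP1, an activator of both ribosomal gene sets, had 98.5 and 118 (0.26), and HMO1, a high-mobility-group protein, had 1246 and 1407 (0.17). FHL1 and RAP1 were past 1.5-fold and SFP1 and HMO1 were not. CRF1, the corepressor that competes with Ifh1 for Fhl1, had low signals of 8.13 and 1.90 (-1.65). Of the biogenesis repressors, TOD6 had 172 and 554 (1.68) whereas STB3 had 160 and 76.0 (-1.06). PRP4 itself differed little, with 121 and 105 (-0.20).

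The GAL regulon differed little in its structural gene GAL1 and more in other members. GAL1 had 12.9 in prp4-1 and 13.7 with lowered IFH1, against 12.8 and 13.9 in the untreated wild type. On the common scale, the log2 ratio of GAL1 to the wild type was -0.36 in prp4-1 and -0.26 with lowered IFH1. GAL7 and GAL10, which encode the other enzymes of galactose use, had 14.7 and 7.23 in prp4-1 and 7.08 and 11.5 with lowered IFH1. GAL80, the repressor of the regulon, had 174 and 196. GCY1, a glycerol dehydrogenase gene of the list, had 234 and 80.8 (-1.52), against 57.4 and 47.9 in the untreated wild type.

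The libraries were checked against the mating type and marker genes of their strains, and differed at several of them. Between wild-type replicates no gene with a mean of at least 10 differed by more than 1.79 on the log2 scale. Both strains had the mating-type pattern of MATalpha cells: the pheromone gene MF(ALPHA)1 had 13001 and 21822 in the pair and 3.25 and 5.02 in the untreated MATa wild type, and STE2, the receptor made by MATa cells, had 22.5 and 28.7 in the pair and 957 and 1058 in the wild type. MET17, the sulfhydrylase gene also called MET15, had 1495 in prp4-1 and was listed at 0 with lowered IFH1, as it was in both untreated libraries of BY4741, which carries its deletion. URA3 had 111 in prp4-1 and was listed at 0 with lowered IFH1 and in all wild-type libraries. MUC1 (FLO11), a flocculin of the cell surface, had 830 in prp4-1, 6.47 with lowered IFH1, and 7.24 and 3.84 in the untreated wild type. At MET17, URA3 and MUC1 the library with lowered IFH1 stood next to the wild type.

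The reverse pattern was seen in genes that were nearly silent in prp4-1. AIF1, which encodes a mitochondrial cell-death factor, was listed at 0 in prp4-1 and had 195 with lowered IFH1, against 116 and 112 in the untreated wild type. The 4 copies of ASP3, the asparaginase repeat near the ribosomal DNA, had between 1.37 and 2.90 in prp4-1 and between 347 and 359 with lowered IFH1, and each lay between 330 and 373 in the untreated wild type. These copies are near-identical, and how reads were divided among them is not stated. The unnamed reading frames of the same stretch of chromosome XII named YLR156W, YLR159W and YLR161W were listed at 0 in prp4-1 and had 11.8, 10.3 and 11.1 with lowered IFH1. LEU2 did not follow the wild type: it had 1386 in prp4-1 and 622 with lowered IFH1, whereas BY4741 lacks the gene and had 0 and 0.43. ADE2 had 159 and 231.

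In all, 5 genes were below 1 in prp4-1 and above 10 with lowered IFH1 (AIF1, the 3 frames above and YOL013W-A), and 7 were below 1 with lowered IFH1 and above 10 in prp4-1 (MET17, URA3, HMS1, HXT5, POT1, STL1 and YNL194C), all named here after their values were seen. The labels do not give the alleles of the second strain at these loci. With 1 library of each strain, a difference due to the lowered IFH1 and a difference between strain backgrounds or cultures cannot be told apart in any of the ratios that follow.

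**Figure D2:**
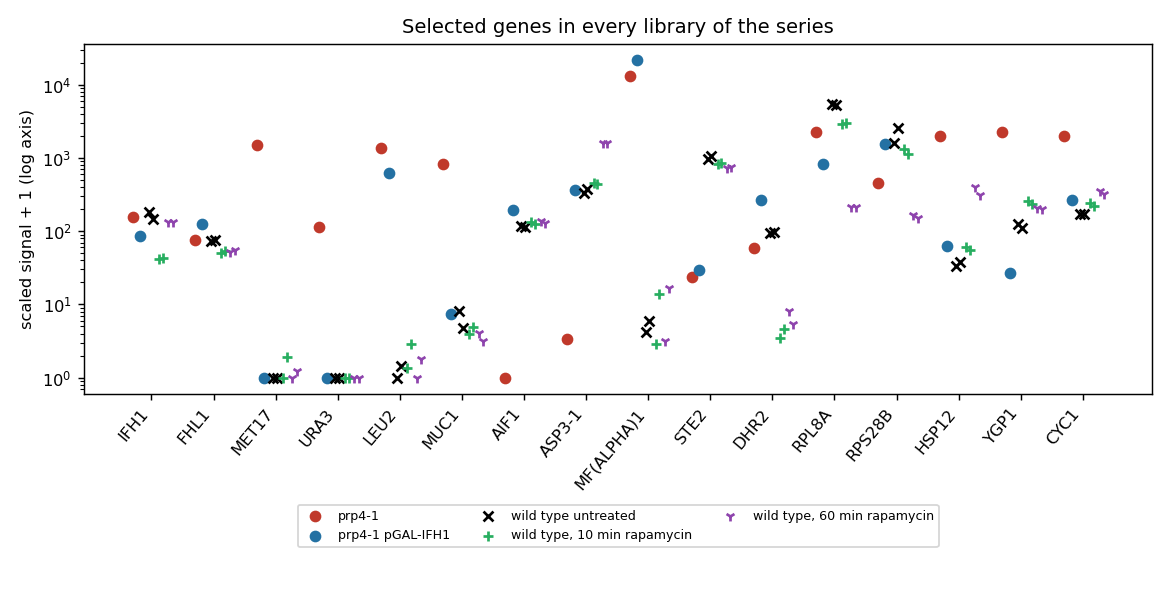
Scaled signal plus 1 (log axis) of 16 genes in each of the 8 libraries, as deposited. At MET17, URA3, MUC1, AIF1 and ASP3-1 the library with lowered IFH1 (blue) lies with the untreated wild type (black crosses) and not with prp4-1 (red), and at MF(ALPHA)1 and STE2 both prp4-1 libraries lie apart from the wild type.

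Ribosomal protein genes were mostly lower with lowered IFH1, by a small amount. All 137 genes for cytosolic ribosomal proteins were above the minimum, and their median log2 ratio was -0.47, a ratio of 0.721, beside 0.00 over all genes. Of the 137, 50 (36.5%, against 21.5% of all genes) were at least 1.5-fold lower and 5 (3.65%, against 18.2%) at least 1.5-fold higher, and 115 had a ratio below 0. With equal totals the median was -0.36, beside 0.11 over all genes, and the counts were 39 lower and 5 higher. Over all 6222 genes the counts with equal totals were 1141 lower and 1374 higher. The group took 19.9% of the summed scaled signal in prp4-1 and 16.1% with lowered IFH1. In the untreated wild type it took 28.2% and 29.5%, and after 60 min of rapamycin 2.46% and 2.50%.

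Both subunits showed the same small difference. The 81 genes of the large subunit and the acidic stalk had a median of -0.44, and the 56 genes of the small subunit one of -0.50. The 20 ribosomal protein genes with the highest mean signal had a median of -0.36 and the 20 with the lowest mean signal one of -0.51. The mitochondrial ribosome, whose 72 genes are under other control, had a median of 0.11. Of these genes 3 (4.17%, against 18.2% of all genes) were at least 1.5-fold higher and 0 (against 21.5%) lower. Both shares were below those of all genes.

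Single genes departed from this median in both directions. RPL8A had 2253 in prp4-1 and 815 with lowered IFH1 (log2 ratio -1.47), the lowest of the 137. RPL22B had 909 and 364 (-1.32), RPL33B 1773 and 805 (-1.14), RPS21B 3636 and 1723 (-1.08), and RPL41B 7860 and 3765 (-1.06). At the other end, RPS28B had 448 and 1554 (1.79), RPS22B 425 and 1011 (1.25), and RPL18B 342 and 746 (1.12). The 2 remaining genes past 1.5-fold, RPL9B and RPS30A, had 902 and 1448 (0.68) and 2117 and 3387 (0.68). These 5 genes were below the untreated wild type in both strains, on the common scale described further on. For RPS28B, RPS22B and RPL18B the log2 ratios to it were -2.57, -1.66 and -2.39 in prp4-1. With lowered IFH1 they were -0.75, -0.38 and -1.24. RPL9B and RPS30A had -1.70 and -1.06 in prp4-1, and -0.99 and -0.36 with lowered IFH1.

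Most yeast ribosomal proteins are encoded by a pair of near-identical genes, called A and B, and reads that match both copies may have been split between them in a way the sources used here do not state. The copies were therefore also summed. Of 59 pairs, 53 had a sum below 0 on the log2 ratio scale, 15 were at least 1.5-fold lower and 0 were at least 1.5-fold higher. Over all genes, counted singly, 21.5% were lower and 18.2% higher by as much. The share of lower pairs was thus only a little above that of all genes. The lowest sum was that of RPL33 (-1.08) and the highest that of RPS30 (0.36). With the 19 single-copy genes added, the median over 78 proteins was -0.46 and 71 of them were below 0.

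The 2 copies of a protein mostly lay on the same side of 0, but not always. In 40 of the 59 pairs both copies lay below 0, and in 2 both lay above it. In 17 the copies lay on opposite sides of 0, and in 10 they differed by more than 1 on the log2 scale. Over all genes 3116 lay above 0 and 3106 below it. How often unrelated genes differ by as much was not counted. RPS22A had 10480 in prp4-1 and 5300 with lowered IFH1 (-0.98) beside the ratio of 1.25 of RPS22B, which has 2 introns where RPS22A has none. RPL9A had 8096 and 4200 (-0.95) beside 0.68 for RPL9B. RPS28A had 8086 and 8007 (-0.01) beside 1.79 for RPS28B. RPS21A had 1830 and 2255 (0.30) beside -1.08 for RPS21B. In RPS22, RPL9 and RPS28 the copy with the higher ratio was copy B, and in RPS21 and RPS30 it was copy A. RPS28A, RPS22A, RPL9A and RPS21A are outside the rule for named genes and are given as the partners of copies that it names.

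**Figure D3:**
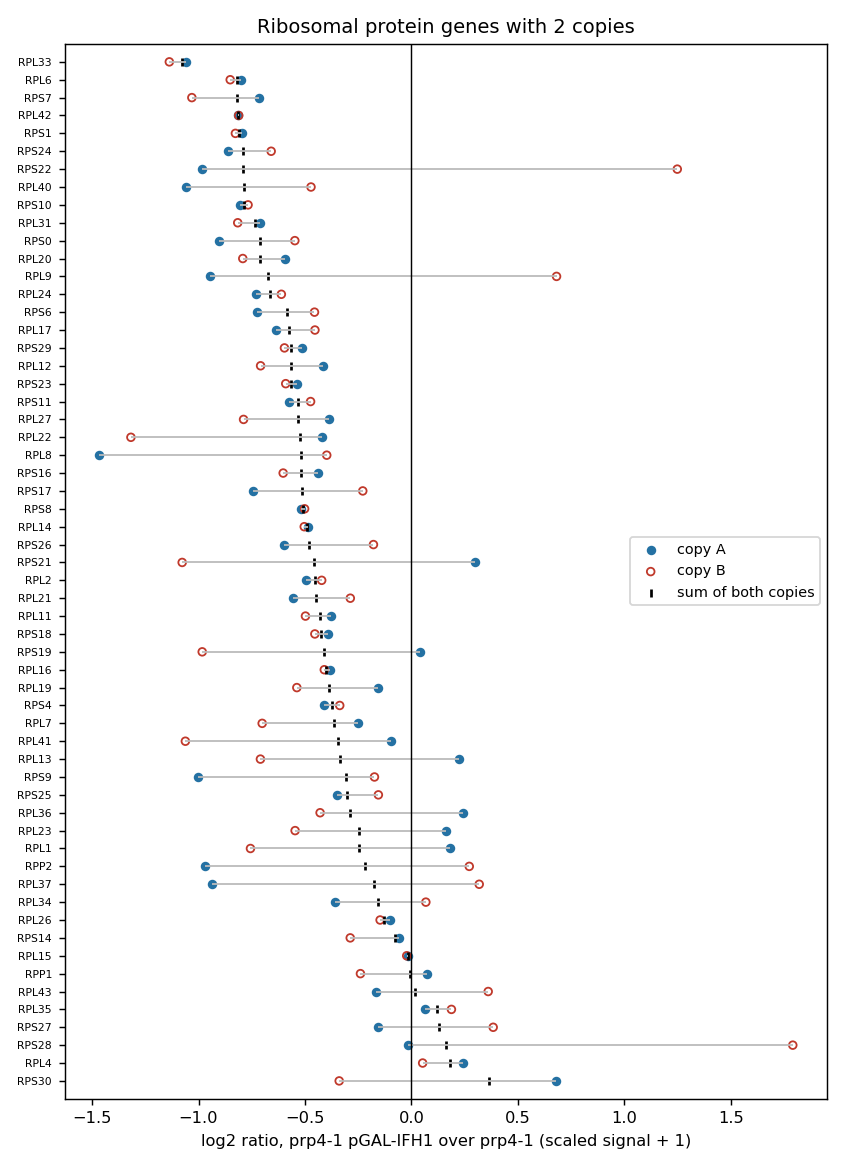
Log2 ratio of copy A (filled blue), copy B (open red) and the sum of both (black tick) for 58 ribosomal proteins with 2 genes, ordered by the sum. The sums of 52 pairs lie left of 0, while RPS22, RPL9 and RPS28 have a copy B far to the right of copy A.

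The study concerns splicing, and the ratios were set against the presence of introns. Of the 137 ribosomal protein genes, 97 have an intron in the gene models used, and their median was -0.48 beside -0.41 for the 40 without one. Some of the 40 span about as much sequence as their copy with an intron, so an intron may have been missed in them. Among 181 tested genes with an intron outside the list of cytosolic ribosomal proteins, the median was 0.07. Of these, 44 (24.3%) were at least 1.5-fold higher and 30 (16.6%) lower, beside 18.2% and 21.5% of all genes. The signal covers the whole gene, so spliced and unspliced RNA are not separated in it.

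Of these other genes with introns, the highest ratios were in YOR318C, an unnamed frame with 10.5 in prp4-1 and 59.2 with lowered IFH1 (2.38), and in DBP2, an RNA helicase whose long intron takes part in its own regulation, with 407 and 1280 (1.65). RPO26, a subunit shared by all 3 nuclear RNA polymerases, had 827 and 2432 (1.56), POP8, a subunit of RNase P, had 22.5 and 61.3 (1.41), and YCL002C had 86.5 and 222 (1.35). The lowest were YJR079W with 43.2 and 3.21 (-3.39) and 4 genes for mitochondrial proteins: COX4 with 576 and 97.4 (-2.55), COX5B with 259 and 47.0 (-2.44), MCR1 with 805 and 168 (-2.25), and QCR10 with 843 and 185 (-2.18). COX4 and QCR10 are also members of the respiratory group described further on.

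The sequence at the start of the intron made little difference to these medians. With the consensus GTATGT at the 5′ splice site, 126 other genes had a median of 0.10, and with other letters there, 43 genes had one of 0.03. In ribosomal protein genes the medians were -0.49 for 72 genes with GTATGT and -0.43 for 22 with other letters. The letters TACTAAC within the intron were also searched. Ribosomal protein genes had medians of -0.49 with them (87 genes) and -0.17 without them (7 genes). The other genes had 0.10 with them (126 genes) and -0.04 without them (43 genes). Of 93 genes of the splicing machinery, 14 (15.1%, against 18.2% of all genes) were at least 1.5-fold higher and 0 (against 21.5%) lower, with a median of 0.26, so that their share of higher genes was below that of all genes. The highest ratios were those of SMX2, which encodes the Sm protein G of the spliceosomal small nuclear particles, with 175 and 658 (1.90), and of SMB1, Sm protein B, with 301 and 687 (1.19). Of 15 mRNA export genes, 3 (20%) were at least 1.5-fold higher, close to the 18.2% of all genes, and 0 lower.

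Listed genes for making ribosomes differed in the direction opposite to the ribosomal proteins, and almost without exception. The members of this and the other lists were chosen with earlier results of these data known, so the counts are descriptions of the lists. Of 152 ribosome biogenesis genes, 149 (98.0%, against 18.2% of all genes) were at least 1.5-fold higher with lowered IFH1 and 0 (against 21.5%) were lower, with a median log2 ratio of 1.27, a ratio of 2.41. DHR2, a helicase of early small-subunit assembly, had 58.3 in prp4-1 and 269 with lowered IFH1 (2.19), and UTP11, a protein of the small-subunit processome, had 330 and 1145 (1.79). At the low end LAS1, an endonuclease of the spacer RNA, had 121 and 145 (0.26), and RIA1, a factor in the last maturation steps of the large subunit, had 122 and 159 (0.38).

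The enzymes that make ribosomal and transfer RNA were higher as well. Of 23 genes for subunits of RNA polymerases I and III, 22 (95.7%, against 18.2% of all genes) were at least 1.5-fold higher, with a median of 1.07. RPO26 led them, followed by RPC34 of RNA polymerase III with 287 and 797 (1.47), and RPC10, a small subunit common to the polymerases, was the exception with 2375 and 2671 (0.17). Among 37 translation factors 17 (45.9%) were higher and 1 was lower, with a median of 0.56, and among 31 mRNA decay genes 15 (48.4%) were higher and 1 was lower. Among 20 aminoacyl-tRNA synthetases 2 (10%, below the 18.2% of all genes) were higher and 0 lower, with a median of 0.33. In the decay group the exosome and its helicase led: MTR4 had 183 and 434 (1.24) and MTR3 had 263 and 595 (1.17).

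Stress genes differed in the other direction and by more. All 54 tested genes of the general stress response, which is driven by Msn2 and Msn4 when protein kinase A is low, were at least 1.5-fold lower with lowered IFH1 (21.5% of all genes), and 51 were at least 2-fold lower (11.5% of all genes). Their median was -2.45, which is 5.47-fold lower. YGP1, a secreted glycoprotein, had 2282 in prp4-1 and 26.0 with lowered IFH1 (-6.40), against 123 and 108 in the untreated wild type. HXK1, a hexokinase of poor carbon conditions, had 641 and 13.5 (-5.46), against 53.3 and 56.5. HSP12, a small membrane-associated heat shock protein, had 1974 and 60.8 (-5.00), against 32.8 and 37.4. The smallest differences were in PRC1, carboxypeptidase Y, with 968 and 526 (-0.88), and GRX1, a glutaredoxin, with 1620 and 878 (-0.88).

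Mitochondrial respiration followed the stress genes. Of 37 genes of the respiratory chain and ATP synthase, 35 (94.6%, against 21.5% of all genes) were at least 1.5-fold lower with lowered IFH1 and 0 were higher, with a median of -1.34. CYT1, cytochrome c1, had 838 and 77.2 (-3.42), against 64.2 and 70.8 in the untreated wild type. On the common scale, the log2 ratio of CYT1 to the wild type was 3.27 in prp4-1 and -0.12 with lowered IFH1. RIP1, the iron-sulfur protein of the same complex, had 570 and 64.8 (-3.12), against 65.5 and 76.0. ATP20 and SDH3 were the 2 that stayed within 1.5-fold, at -0.36 and -0.54.

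Several chaperone, membrane and turnover groups had more lower genes than the 21.5% over all genes, with smaller medians. Of 20 chaperone genes of heat shock factor, 11 (55%) were lower and 0 higher, led by HSP82, the inducible Hsp90, with 1083 and 134 (-3.01), and BTN2, a protein sorter, with 1361 and 205 (-2.72). Among 22 autophagy genes 15 (68.2%) were lower and 0 higher, and ATG8, the ubiquitin-like protein of the autophagosome, had 547 and 98.7 (-2.46). Among 23 ergosterol genes 13 (56.5%) were lower and 0 higher, with ERG28 at 1673 and 365 (-2.19). Of 33 proteasome genes 10 (30.3%) were lower and 0 higher, and the lowest was RPN4, the transcription factor of proteasome genes, with 625 and 274 (-1.19). Of 12 retrograde genes 8 (66.7%) were lower and 0 higher, led by the citrate synthase genes CIT1 with 753 and 116 (-2.69) and CIT2 with 775 and 160 (-2.27).

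**Figure D4:**
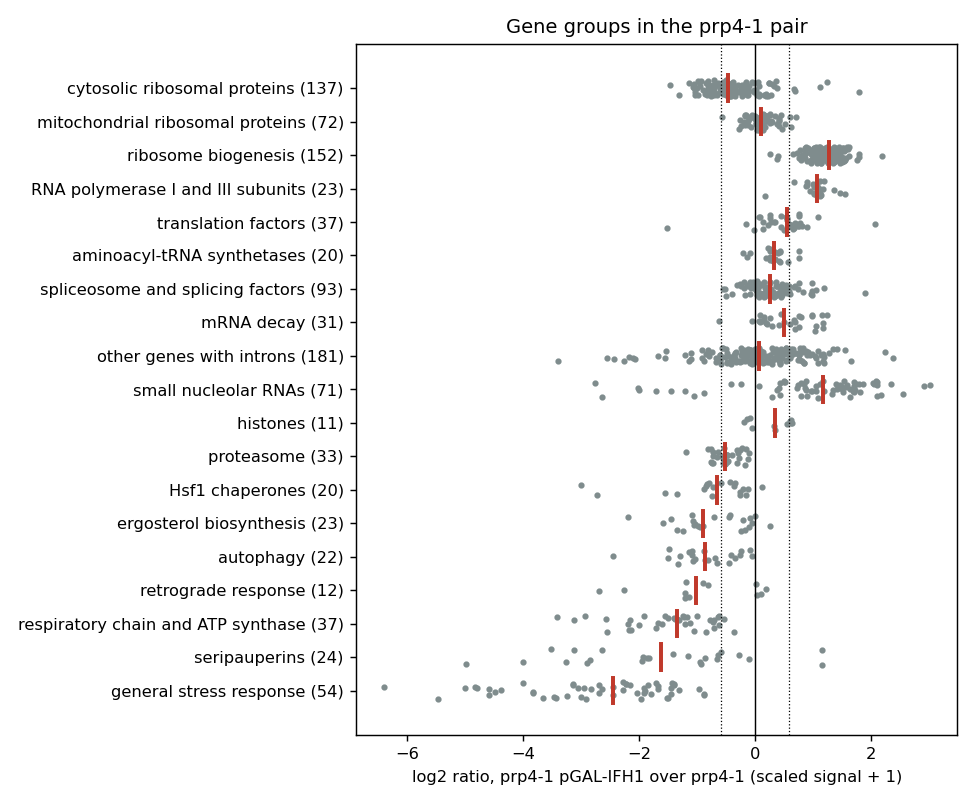
Log2 ratio of every tested gene (grey points) in 19 gene groups, with the number of genes in brackets, the group median as a red bar, equal signal as a solid line and 1.5-fold as dotted lines. All but 3 of the 152 ribosome biogenesis genes and all but 1 of the 23 polymerase genes lie right of the upper line, the cytosolic ribosomal proteins straddle the lower one, and the 54 general stress genes lie wholly to its left.

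The short motifs of these promoters are shown because the groups that differ most are known by them. PAC (GATGAG) is bound by Tod6 and Dot6 and RRPE (AAAAATTT) by Stb3, and the stress response element (CCCCT) is bound by Msn2 and Msn4. A Rap1-type motif (ACCCANACA) was searched for the ribosomal protein genes. Each stretch below is the 160 bases, ending at least 61 bases before the start codon, with the most matches to its group's motifs, written 5′ to 3′ on the strand of the gene, with matches on either strand in capitals, from the R64 assembly (sacCer3). DHR2 (chrXI:288625-288784, plus strand) and UTP11 (chrXI:256533-256692, minus strand) had the highest ratios of the biogenesis group, RPL8A (chrVIII:36181-36340, minus strand) the lowest of the ribosomal proteins, and HSP12 (chrVI:106816-106975, plus strand) and HXK1 (chrVI:255377-255536, minus strand) were among the 3 lowest of the stress genes. YGP1, the lowest, had 1 stress response element in its 500 bases and is not printed.
DHR2: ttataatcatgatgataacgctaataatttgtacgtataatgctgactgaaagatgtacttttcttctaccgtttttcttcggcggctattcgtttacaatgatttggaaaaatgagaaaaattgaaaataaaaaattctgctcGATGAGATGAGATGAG
UTP11: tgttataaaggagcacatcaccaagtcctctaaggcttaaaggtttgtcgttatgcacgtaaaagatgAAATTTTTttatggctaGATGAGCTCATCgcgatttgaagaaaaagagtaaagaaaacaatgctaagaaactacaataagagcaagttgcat
RPL8A: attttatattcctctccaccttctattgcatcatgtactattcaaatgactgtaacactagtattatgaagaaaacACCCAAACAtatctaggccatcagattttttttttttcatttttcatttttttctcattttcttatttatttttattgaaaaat
HSP12: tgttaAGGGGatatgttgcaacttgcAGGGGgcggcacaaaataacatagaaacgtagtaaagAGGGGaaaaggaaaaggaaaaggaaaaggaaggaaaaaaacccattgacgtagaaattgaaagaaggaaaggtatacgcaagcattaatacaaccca
HXK1: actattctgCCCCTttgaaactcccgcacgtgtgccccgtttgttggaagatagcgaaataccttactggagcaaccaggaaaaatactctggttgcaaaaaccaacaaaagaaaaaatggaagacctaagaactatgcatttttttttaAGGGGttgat

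In the DHR2 stretch 3 PAC matches overlap one another. The UTP11 stretch holds 1 RRPE match followed by 2 PAC matches on opposite strands, that of RPL8A holds 1 Rap1-type match, and those of HSP12 and HXK1 hold 3 and 2 stress response elements. A match is a string of letters and no evidence of binding.

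Searched on both strands in the 500 bases before the start codon, PAC and RRPE were both present in 115 of 152 biogenesis genes (75.7%) and in 8.79% of 5734 tested protein-coding genes. The 504 genes with both motifs had a median log2 ratio of 0.67, and the remaining genes one of -0.05. Biogenesis genes are among these 504, so this contrast in part repeats that of the list. No median without them was taken. Within the biogenesis group the contrast was small, with 1.28 for genes with both motifs and 1.23 for the others. The CCCCT element was present in 51 of 54 stress genes (94.4%) and in 34.3% of all, and the stress genes with it had a median of -2.44 beside -3.14 for the 3 without it. The Rap1-type motif was present in 49 of 137 ribosomal protein genes (35.8%) and in 3.16% of all. Ribosomal protein genes with this motif had a median of -0.55 and those without it -0.41. No match to it was found before RPL22B or RPS28B.

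The wild-type libraries were used to place the 2 strains. For this, all 8 libraries were brought to a common scale by the median ratio over genes, since the deposited scales of the 2 sets differ. Temperature, mating type and strain differ between the pair and the wild type, and they cannot be told apart in these ratios. On this scale the biogenesis genes of prp4-1 had a median log2 ratio of -0.55 to the untreated wild type, and those of the strain with lowered IFH1 one of 0.74. The stress genes had a median of 1.81 in prp4-1 and -0.60 with lowered IFH1, and the respiratory genes 1.20 and -0.12. The wild type thus lay between the 2 strains in the biogenesis and stress groups. The ribosomal protein genes had a median of -0.92 in prp4-1 and -1.36 with lowered IFH1, both below the wild type.

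Over single genes neither strain was the one that always stood apart. Of 529 genes at least 2-fold higher with lowered IFH1, 228 (43.1%) had prp4-1 within 1.5-fold of the wild type and the other strain outside it, and 148 (28.0%) the converse. Of 714 genes at least 2-fold lower, 159 (22.3%) had only prp4-1 near the wild type and 290 (40.6%) only the strain with lowered IFH1. PHO84, the high-affinity phosphate transporter, was far from the wild type in both: it had 126 in prp4-1 and 2.69 with lowered IFH1, against 2575 and 2523 in the untreated wild type. Across genes, the log2 signal correlated with that of the wild type at r = 0.931 for prp4-1 and 0.945 for lowered IFH1.

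Rapamycin inhibits TORC1, and the pair was set against the response of the wild type to it. No library is shared between the 2 comparisons. Across 6088 genes with a mean of at least 1 in both sets, the log2 ratio of the pair and the log2 change after 10 min of rapamycin correlated with r = -0.50 (Spearman's rho -0.53), and after 60 min with r = -0.40 (rho -0.48). Without the ribosomal protein genes the values were -0.51 and -0.48. These are descriptions over genes that share libraries, with no test.

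The opposite signs were seen gene by gene. Of 1090 genes at least 1.5-fold higher with lowered IFH1, 50.2% were at least 1.5-fold lower after 10 min of rapamycin (15.7% of all 6088 genes) and 63.2% after 60 min (27.6% of all). Of 1296 genes at least 1.5-fold lower with lowered IFH1, 40.3% were at least 1.5-fold higher after 10 min (13.1% of all) and 57.3% after 60 min (26.6% of all). The biogenesis genes had a median of 1.27 in the pair, -2.49 at 10 min and -2.63 at 60 min, and the stress genes -2.45, 1.38 and 1.82. The ribosomal protein genes did not have opposite signs, with medians of -0.47 in the pair, -0.53 at 10 min and -4.31 at 60 min. Some other groups shared a sign as well: the phosphate starvation genes had medians of -0.53, -0.45 and -1.25, and the glycolysis genes -0.21, -0.10 and -1.28.

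**Figure D5:**
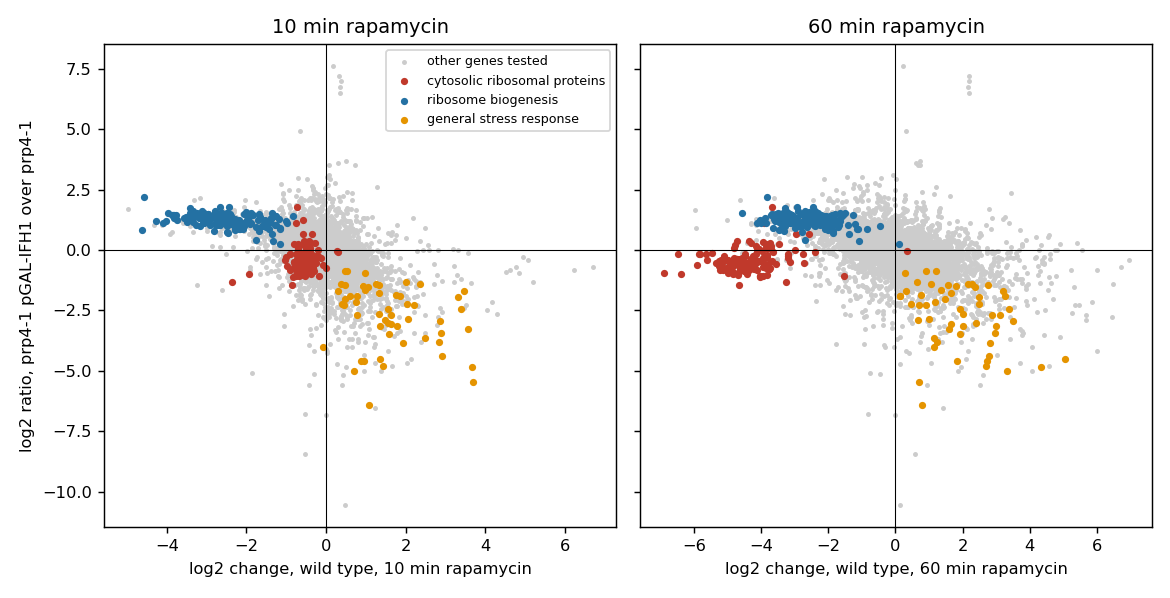
Log2 ratio of the pair (y axis) against the log2 change of the wild type after 10 min (left) and 60 min (right) of rapamycin (x axes), 1 point per gene. Most biogenesis genes (blue) lie in the upper left and most stress genes (orange) in the lower right of both panels, while most ribosomal protein genes (red) lie below 0 on both axes.

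The extremes of the pair included many of the loci described above. Among the 15 highest ratios, taken over genes whose mean scaled signal reached 10, were AIF1, the 4 ASP3 copies, the multidrug transporter gene QDR2 with 30.4 in prp4-1 and 354 with lowered IFH1 (3.50), the iron reductase gene FRE4 with 19.1 and 132 (2.73), the mitochondrial citrate transporter gene CTP1 with 67.3 and 376 (2.47), and 3 small nucleolar RNAs. FRE4 and CTP1 were also above the untreated wild type, which had 20.2 and 22.3 for FRE4 and 103 and 99.5 for CTP1.

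Among the 15 lowest were MET17, URA3, MUC1 and PHO84, the stress genes YGP1, HXK1 and HSP12, and the glyceraldehyde-3-phosphate dehydrogenase gene TDH1 with 2499 and 76.1 (-5.02). YER053C-A, a small unnamed reading frame, had 2010 and 4.80 (-8.44), against 3.54 and 1.81 in the untreated wild type. The plasma membrane protein genes YRO2 and HSP30 had 842 and 8.09 (-6.53) and 901 and 25.1 (-5.11). TPO2, a polyamine exporter, had 1133 and 30.4 (-5.17), and YKL071W, of no named function, had 978 and 19.3 (-5.59), against 8.82 and 7.58 in the untreated wild type.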

How the data were processed

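Strand-specific libraries of poly(A) RNA were made with dUTP, per the labels' protocols, and reads were mapped with TopHat and Bowtie to sacCer3, per the submitters' processing notes; versions are not given in the sources used here. The deposited table holds a signal per gene and library, which the authors multiplied by 1 constant per library (1.59 for prp4-1 and 0.633 for lowered IFH1); how the constant was chosen and how shared reads were divided is not stated. The table's 6 unscaled wild-type columns and 3 average columns were not used.

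The members and gene lists were chosen with earlier results of these data known, and the lists of oxygen-paired isoforms, strain loci and small nucleolar RNAs after the values were seen. Genes with a mean scaled signal of at least 1 over the pair were kept, log2 ratios used a pseudocount of 1, and 1.5-fold and 2-fold are thresholds of description. A ratio on this scale understates the difference of low genes. With 1 library per strain no test was made. Named genes were IFH1, FHL1, RAP1, SFP1, CRF1, HMO1 and PRP4, the 15 highest and 15 lowest ratios where the mean reached 10, the 2 highest and 2 lowest of each list (5 and 5 for ribosomal proteins and other genes with introns), and the members of the mating-type, marker and GAL lists. Gene positions are those of the deposited table, counted from 1. Introns come from the deposited gene models and, where these lack a gene, from R64, and upstream sequence from R64, in which 99.2% of 5827 matched gene names had the coordinates of the deposited models. Python 3.11.15, pandas 2.3.3 and numpy 2.4.6 were used, and the ratio step was tested on simulated data. Alternatives were 2 other pseudocounts, 2 other minimums, other scalings of the pair, leaving out each wild-type library, leaving out the ribosomal protein genes and, chosen after seeing the data, summing paralogue pairs and leaving out the stress, respiratory and biogenesis lists. The copies of 1 ribosomal protein pair are not compared here; the pair is counted in the summaries and not drawn.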

Additional observations from a re-analysis of the deposited data

How the results depend on the processing

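No paired analysis was possible because the pair holds 1 library per strain and the ratios come from no test. The counts past 1.5-fold stayed within 1.5 times of the reported ones under every alternative run: between 982 and 1375 higher and between 1141 and 1382 lower. With equal totals the ribosomal protein median was -0.36, beside 0.11 over all genes, and the IFH1 log2 ratio was -0.72. Leaving out each wild-type library gave correlations with the rapamycin change between -0.51 and -0.48 at 10 min and of -0.40 at 60 min. Of 45 list medians, that of the glucose-repressed genes moved from -0.80 to -0.47 with a mean of at least 10. A pseudocount of 0.5 moved 7 values by more than the wild-type replicate spread, all of them genes with a signal below 2 in 1 library, and a pseudocount of 5 moved 37. For genes listed at 0 in 1 library, such as MET17, URA3 and AIF1, the log2 ratio is set by the pseudocount. Reads per gene are unknown, so the precision of low values is too.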

Other observations

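Several genes whose products come in forms for high and low oxygen differed between the 2 strains, in a list chosen after its values were seen. Of the 13 tested genes of this list, 4 (30.8%, against 18.2% of all genes) were at least 1.5-fold higher. Lower by as much were 7 (53.8%, against 21.5%). Not all of them are named here. HYP2, the aerobic gene of the translation factor eIF5A, had 13571 in prp4-1 and 4747 with lowered IFH1 (log2 ratio -1.52), whereas ANB1, its hypoxic counterpart, had 208 and 877 (2.07). In the untreated wild type HYP2 had 8471 and 7324 and ANB1 had 232 and 261. AAC3, the hypoxic adenine nucleotide carrier, had 65.2 and 144 (1.13). Both cytochrome c genes were lower with lowered IFH1, CYC1 with 2013 and 262 (-2.94) and CYC7 with 209 and 18.5 (-3.43), and so were both subunit 5 genes of cytochrome oxidase, COX5A with 1474 and 562 (-1.39) and COX5B with 259 and 47.0 (-2.44). HAP1, the heme-responsive activator, had 148 and 254 (0.77), and ROX1, the repressor of hypoxic genes, had 721 and 396 (-0.86). Among these pairs with both members given, the 2 members thus differed in opposite directions for eIF5A and in the same direction for cytochrome c and subunit 5. HMG1 and HMG2, the reductase genes of sterol synthesis, both stayed within 1.5-fold, at -0.45 and -0.05.

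Small nucleolar RNAs, which guide modification of ribosomal RNA and carry no poly(A) tail when mature, gave signal in these poly(A) libraries. Of 71 tested, 51 (71.8%, against 18.2% of all genes) were at least 1.5-fold higher with lowered IFH1 and 9 (12.7%, against 21.5%) lower, with a median log2 ratio of 1.17. The extremes were snR65 with 3.39 in prp4-1 and 34.6 with lowered IFH1 (3.02) and snR53 with 71.0 and 9.57 (-2.77). Many of these signals are low, and wild-type replicates of snR65 had 10.8 and 0.638. The group also differed between the untreated wild-type libraries, with a median log2 ratio of 0.26, beside -0.0009 over all genes.

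Some cell surface genes also differed, and biosynthetic groups were mixed. Of 24 seripauperin genes, mostly near chromosome ends and with near-identical copies, 19 (79.2%, against 21.5% of all genes) were at least 1.5-fold lower and 2 (8.33%, against 18.2%) higher, with PAU13 at 196 and 11.3 (-4.00) and PAU18 at 36.2 and 81.8 (1.15). Of 27 cell wall genes, 11 (40.7%, against 21.5% of all genes) were at least 1.5-fold lower and 1 (3.70%, against 18.2%) higher. Their median was -0.45, and their summed signal was 123858 in prp4-1 and 131437 with lowered IFH1. The lowest were the flocculin genes FLO1 with 175 and 10.6 (-3.93) and FLO9 with 43.9 and 3.24 (-3.40). The highest were TIR2 with 53.2 and 101 (0.92) and CCW12 with 68123 and 93976 (0.46). Of 49 amino acid synthesis genes of the Gcn4 list, 8 (16.3%) were at least 1.5-fold higher and 9 (18.4%) lower. These shares were near the 18.2% and 21.5% of all genes, and the median was -0.03. LYS4, of lysine synthesis, had 175 and 406 (1.21). ARG1, of arginine synthesis, had 151 and 14.4 (-3.31), against 776 and 698 in the untreated wild type. Of 16 adenine synthesis genes 3 (18.8%, against 18.2% of all genes) were higher and 2 (12.5%, against 21.5%) lower, with a median of 0.15. ADE4 had 289 and 468 (0.70) and ADE17 had 195 and 65.8 (-1.56). Of 252 tested genes within 20 kb of a chromosome end, 36.1% were past 2-fold in either direction, against 19.3% of the other 5970. Chromosome medians lay between -0.16 for chromosome VI and 0.06 for chromosome XII.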
